A study of Mus musculus with 33 samples.

Results

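The probes described here were readily measured in every sample of mouse macrophage-like cells and carried at least 2 log2 units more signal after lipopolysaccharide (LPS). They are 213 of the 33012 gene probes on the array. A probe was included if its signal-over-noise score was at least 3 and its quality flag at most 5000 on all 33 arrays, if its file identifier was not a RefSeq accession, and if the mean of the 30 LPS-treated arrays exceeded the mean of the 3 vehicle arrays by 2 or more in the authors' deposited log2 table. Detection on all arrays and the identifier left 9385 probes, so 213 of 9385 passed the last step. The probes were thus chosen by their rise after LPS, which is described below without a test. Differences among the LPS-treated groups played no part in the choice and were tested.

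The cells were RAW264.7, an established mouse line that is widely used as a macrophage model. Vehicle cells received 0.1% DMSO and no LPS, and no DMSO content is recorded for the other groups. The other 10 groups received LPS at 1 µg/ml, either alone or together with 1, 10 or 100 µg/ml of one of the compounds albiflorin, paeoniflorin and paeonol. Every group was treated for 6 h and had 3 arrays, which the text on the design calls biological replicates. Nothing further says how the cultures were kept apart, so the p-values measure the spread between these arrays. No group received a compound without LPS. The comparisons with LPS alone all use the same 3 LPS arrays.

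LPS is a component of the outer membrane of Gram-negative bacteria that macrophages sense through the receptor TLR4. The receptor signals through adaptor proteins to NF-κB and to interferon regulatory factors, and cytokines, chemokines and interferon-inducible genes are the known early targets in macrophages. Albiflorin and paeoniflorin are isomeric monoterpene glycosides of peony root, and paeonol is a small phenolic ketone without a sugar.

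The files name 203 of the 213 probes by a Celera gene identifier, 9 by an accession that starts with AK and 1 by an accession that starts with BC. Celera identifiers made up 95.3% of these probes and 93.8% of all 9385 eligible probes. None of the 213 could be paired with a gene symbol, which was possible for 317 of 33012 probes on the array, so they are given by probe number and file identifier. The 213 probes cover 207 identifiers, 6 of which have a pair of probes among them. Of 122 entries in lists of markers of macrophages and other cells and of parts of the LPS response, 4 had a named probe (Cebpb, Bcl2a1b, Ifi202b and Nlrp3). None was among the 213. Cd14 and Marco stand among the macrophage markers and again in a list of the LPS response. Symbols were matched through RefSeq accessions or gene names, and the rule left out RefSeq accessions. The absence of named genes from the 213 was therefore largely set by the rule. Of the 15 macrophage markers only Cebpb, which encodes a transcription factor, had a named probe. It was detected on all 33 arrays. None of the 17 listed markers of fibroblasts, T cells, B cells, epithelium and endothelium had a named probe. Nothing could thus be set beside Cebpb, and the cell type could not be checked.

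The RefSeq exclusion removed 5 further probes with a rise of at least 2, and 4 of them have symbols. Ifi202b, an interferon-activated gene, rose by 4.67, Csprs by 4.26, C130026I21Rik by 2.68 and Bcl2a1b, which encodes a Bcl-2 protein that protects from apoptosis and has near-identical gene copies that a probe may not tell apart, by 2.32 in the authors' deposited table. These 4 were picked by the same threshold, so they do not show the range in which named genes sat. The other listed genes with a probe rose less, Cebpb by 0.99 and 1.16 on its 2 probes and Nlrp3 by 1.73. None of these probes is counted below.

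Array quality varied. Median raw signal ran from 335.9 to 1439.7 and the share of gene probes detected from 38.2% to 49.7%. The array of paeoniflorin 10 µg/ml replicate 1 stood apart, since it detected the fewest probes and had the lowest median correlation (0.921) with other arrays. On it 19 of the 213 probes did not exceed their highest vehicle value, against 0 to 2 on any other LPS-treated array. The signal of a manufacturing test control spot divided the arrays into a set of 10 with log2 signals up to 9.21 and a set of 23 from 16.06 upward. Replicates 2 and 3 of vehicle and of LPS alone belonged to the low set, and all paeonol arrays and all arrays of paeoniflorin 100 µg/ml to the high set. Per the file headers, arrays with the same replicate number were scanned on the same day.

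The rise after LPS ranged from 2.02 to 8.61 log2 units in the authors' deposited table, which corresponds to 4.05-fold and 390-fold, with a median of 2.81 (7.03-fold). The highest value belongs to a probe at the top of the intensity scale, described below, and may be a lower bound. It was at least 3 for 94 probes, at least 4 for 48, at least 5 for 24, at least 6 for 13 and at least 8 for 3. The other 9172 eligible probes had a median change of 0.01. In the authors' deposited table every LPS-treated array lay above every vehicle array for 193 of the 213 probes, and this held for 5.06% of the 19438 probes tested across the array. Since the rule used this contrast, nothing is read from the difference.

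All further levels are log2 of the scanner intensity after quantile normalization between arrays. On this scale the median rise was 2.72. The threshold applied to these values instead would have kept 198 probes, all of them among the 213, and applied to median-scaled intensities 191, again all among them. The median over their vehicle levels was 13.30 (range 10.12 to 18.41) and with LPS alone 16.72. Levels of different probes are not compared, and the vehicle level entered the rule. With LPS alone, each of the 213 probes was higher on every LPS array than on any vehicle array, as were 12.9% of all tested probes. The rule used these arrays as well, so nothing is read from this difference either.

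The largest rise was that of probe 516139 (mCG11684.1), at 8.61. Its vehicle arrays read 13.16, 12.43 and 12.52 and its LPS arrays 20.91, 21.30 and 21.47. The means of the 9 compound groups ran only from 20.98 to 21.27, beside an LPS-alone mean of 21.23. A quality code of 4, which occurs only on signals of 19.37 log2 units or more and whose meaning the sources used here do not give, marked this probe on 26 arrays. Its levels repeat at the top of the normalized scale, up to 21.47, since quantile normalization gives spots of the same rank the same value. Whether the signal itself was bounded there is not known, and nothing is read from the evenness of these levels. The same code marked 183 spots of 21 of the 213 probes, none of them on a vehicle array.

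The next was probe 888038 (mCG1045132), at 8.41. It read 9.90, 11.44 and 9.81 in vehicle cells and 18.55, 19.86 and 19.02 with LPS alone. With paeonol 100 µg/ml it read 16.94, 16.98 and 17.97, below all 3 LPS arrays and still above every vehicle array. The groups of LPS alone and paeonol 100 µg/ml did not overlap.

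The smallest rises lay close to the threshold. Probe 489395 (mCG10468.3) had the smallest rise, 2.02. It read 14.46, 13.91 and 14.72 in vehicle cells and 15.99, 16.38 and 16.48 with LPS alone. Probe 926875 (mCG22640.2) followed with 2.03 and moved from 11.41, 9.90 and 10.59 to 13.11, 12.18 and 12.69. Neither had an array of LPS alone that reached down to a vehicle array. Probe 926875 overlapped vehicle elsewhere, at 11.21 on paeonol 100 µg/ml replicate 2. Just outside lay probe 306262 (mCG119533.1) at 2.00, which is 1.998 before rounding, and probe 850524 (mCG1035987) at 1.99.

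**Figure D1:**
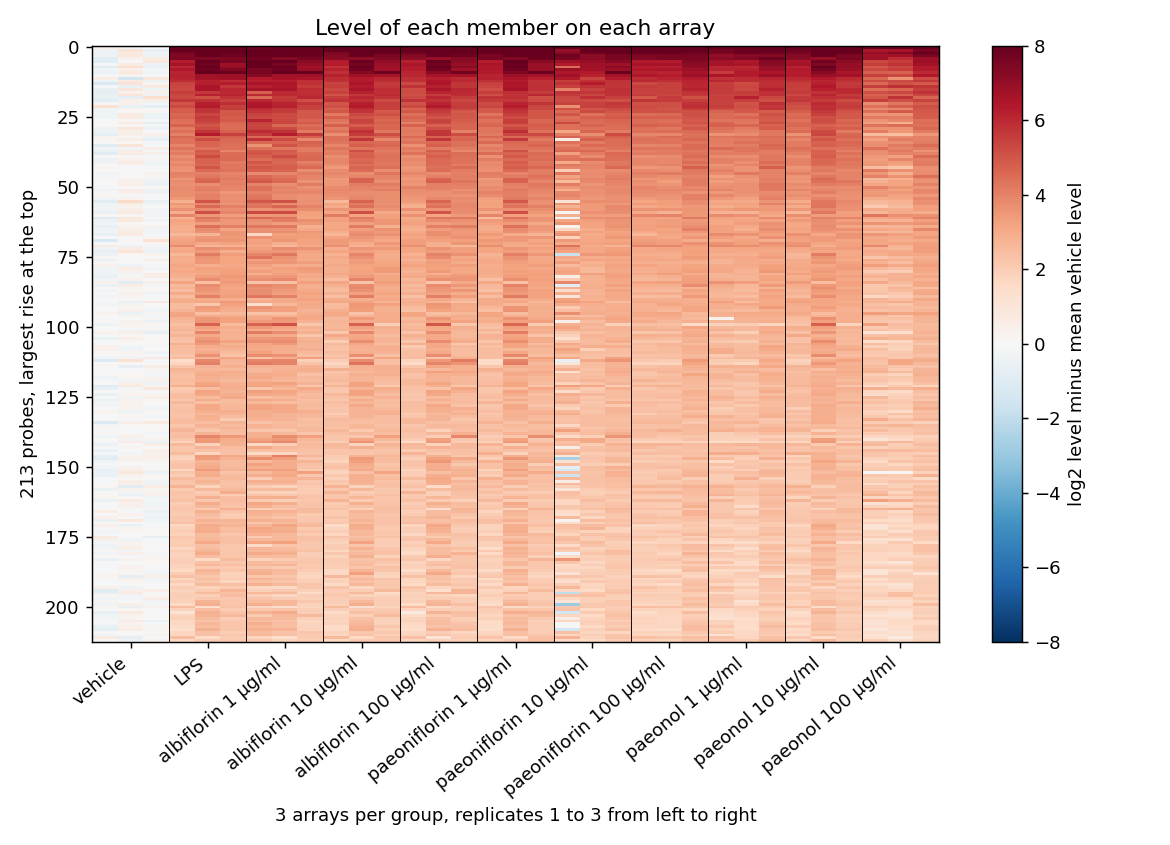
Log2 level of each of the 213 probes (rows, largest rise at the top) on each of the 33 arrays (columns, 3 per group), as the difference from the probe's mean vehicle level on the colour scale. All 10 LPS-treated groups are raised, the array of paeoniflorin 10 µg/ml replicate 1 has scattered rows near or below the vehicle level, and the 3 arrays of paeonol 100 µg/ml are paler than most.

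The rises of the 6 pairs with a common identifier differed by 0.05 to 0.64, where both probes had been chosen for a rise of at least 2. Identifier mCG119533.1 had a further probe, 306262 above, and its pair rose by 2.47 and 2.32. A further 21 probes share an identifier with one of the 213 but are not among them. Only 5 of these were detected on all 33 arrays, and their rises of 1.00 to 2.00 fell short of the threshold. Of all 21, 7 had a rise of 2 or more and 15 a rise above 0, and they ran from -1.56 to 6.35. Probe 722395 shares mCG10468.3 with the smallest rise and was detected on 2 arrays, where probe 489395 was detected on all.

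The 213 probes varied together from array to array. Over the 30 LPS-treated arrays, which all probes share, the median Pearson correlation between a pair of them was 0.45, and 0.41 once each group's mean had been removed. Between other eligible probes it was 0.01. This is a description of these arrays, and depth of signal and scan day are common to the points. Their spread within a group was also wider, with a median SD of 0.358 against 0.244 for the other eligible probes.

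The shared variation is visible in each array's median over the 213 probes, taken as the level above the vehicle mean. With LPS alone the 3 arrays stood at 2.56, 3.13 and 2.90 (2.86 ± 0.285, SD, n = 3). On replicate 1 the 9 compound groups lay between 2.41 and 2.69, apart from albiflorin 1 µg/ml at 3.18. On replicate 3 they lay between 2.69 and 2.87. On replicate 2 they fell apart into 5 groups between 3.08 and 3.17 and 4 groups between 2.37 and 2.67, the latter being paeoniflorin 10 and 100 µg/ml and paeonol 1 and 100 µg/ml. These 4 are not the groups of a single compound or dose, and the part of the scan day, culture or array in this split was not tested.

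**Figure D2:**
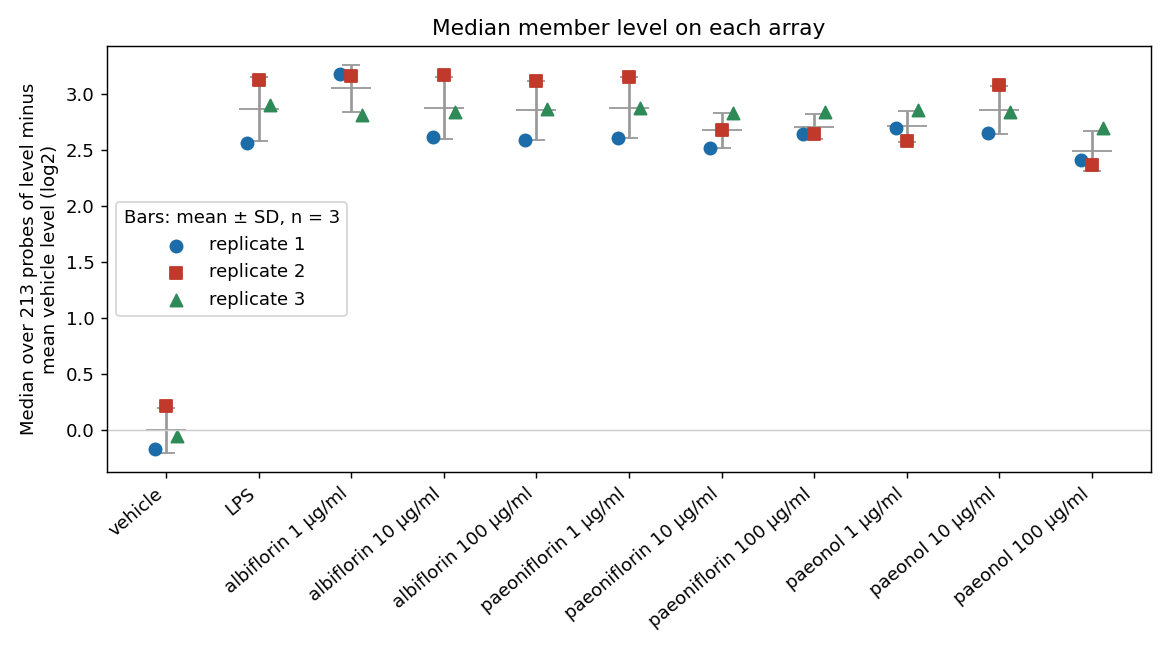
Median over the 213 probes of the log2 level minus the mean vehicle level on each array, by group, with the mean ± SD of 3 arrays in grey and the replicate number by colour and shape. Replicate 2 reads 3.08 to 3.17 in LPS alone and 5 compound groups and 2.37 to 2.67 in the other 4, and paeonol 100 µg/ml has the lowest mean, 2.49.

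Paeonol at 100 µg/ml was the group in which these probes stood lowest. Their median difference from LPS alone was -0.47 log2 units (1.39-fold lower), while the median over all 19438 tested probes was 0.03. The difference was below 0 for 199 of 213 probes (93.4%), as it was for 45.7% of all tested probes, and it ranged from -2.47 to 0.55. It was 2-fold or more downward for 28 probes and 2-fold upward for none. The array medians above vehicle were 2.41, 2.37 and 2.69 (2.49 ± 0.176, SD, n = 3), and 156 of the 213 had a mean rise of at least 2. All 156 were among the 210 with such a rise under LPS alone. In the other compound groups this count ran from 170 with paeoniflorin 10 µg/ml to 209 with albiflorin 10 µg/ml and paeoniflorin 1 µg/ml. The rule used all these arrays, so nothing is read from the rise that remained. In RNA of whole cultures, fewer responding cells and less RNA per cell cannot be told apart.

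In limma's test 2 of the 213 probes were called at an adjusted p under 0.05, both lower with paeonol 100 µg/ml. Over the whole array 28 of 19438 probes were called, which is 0.144%. At an unadjusted p under 0.05, 78 of the 213 were lower and none higher, and the lower share over all tested probes was 3.88%. Every paeonol array lay below every LPS array for 62 of the 213, or 29.1%, against 6.18% of all tested probes. Every paeonol array lay above for 3 of the 213, against 8.88% of all tested probes.

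Probe 915023 (mCG20077.2) read 13.28, 11.26 and 13.61 in vehicle cells and 18.81, 19.38 and 19.46 with LPS alone. With paeonol 100 µg/ml it read 17.32, 16.29 and 17.94. The groups did not overlap, and the fitted difference was -2.03 ± 0.407 (SE), 4.09-fold lower (limma adjusted p = 0.0322, 95% interval -2.87 to -1.19). Its means at paeonol 1 and 10 µg/ml were 18.65 and 18.81, and the 8 compound groups other than paeonol 100 µg/ml spanned 18.65 to 19.16.

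Probe 830078 (mCG13763.2) moved less, with less spread. It read 13.81, 13.65 and 13.16 in vehicle cells, 18.15, 18.13 and 18.35 with LPS alone and 17.28, 17.31 and 17.57 with paeonol 100 µg/ml. The 3 paeonol arrays lay below all other LPS-treated arrays. The difference was -0.82 ± 0.162 (SE), 1.77-fold lower (limma adjusted p = 0.0294, 95% interval -1.16 to -0.49).

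**Figure D3:**
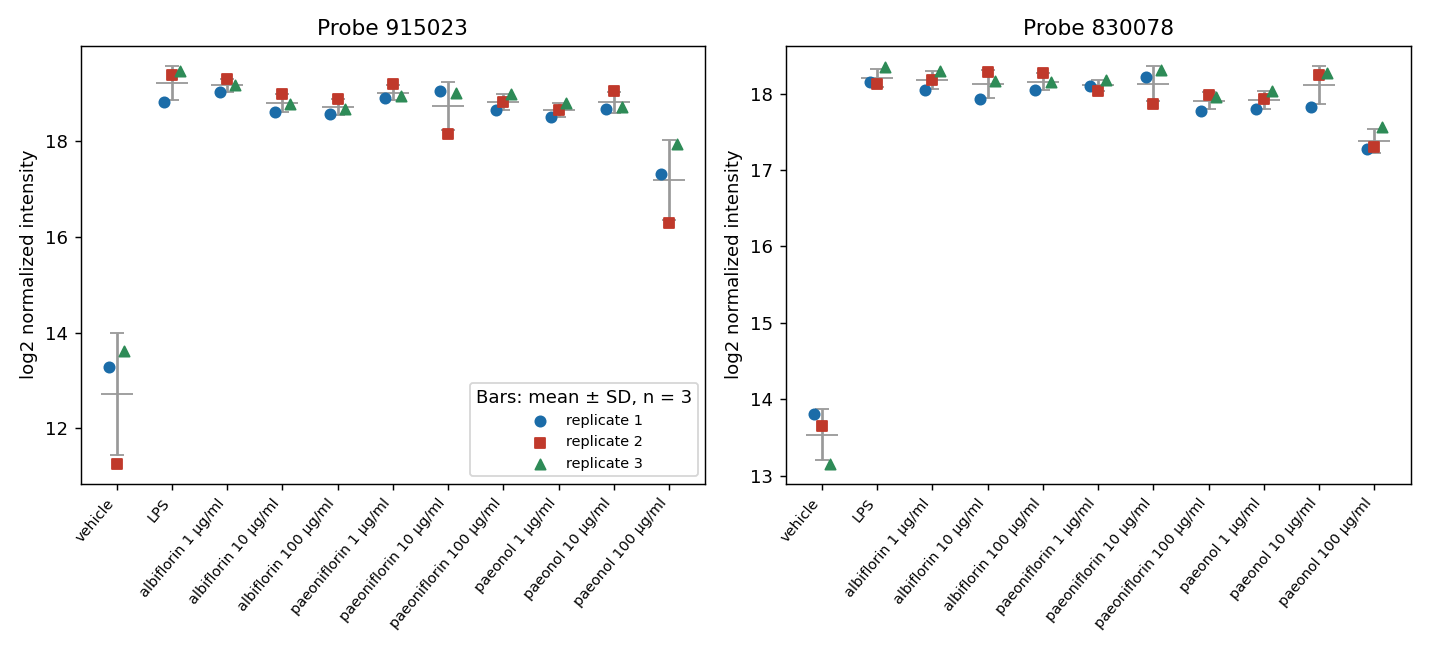
Log2 normalized intensity of the 2 probes called lower with paeonol 100 µg/ml, on each array by group, with the mean ± SD of 3 arrays in grey. Both rise by more than 3 log2 units with LPS in every group, and the 3 arrays of paeonol 100 µg/ml lie below all other LPS-treated arrays.

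The number of called probes depended on single arrays and on the fit. It was 10 with the scan day as a replicate block, 0 with the control-spot array set as a block, 0 without any one of LPS replicate 2, LPS replicate 3, paeonol 100 µg/ml replicate 1 or replicate 2, 4 without LPS replicate 1 and 7 without paeonol 100 µg/ml replicate 3. Without the replicate 2 arrays of every group, a setting chosen after the array medians were seen, no member was called and 23 were lower and 2 higher at an unadjusted p under 0.05, with 2.26% of all tested probes lower at that level.

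The direction of the median was less dependent on any array. Against the LPS array of the same scan day, the median difference with paeonol 100 µg/ml was -0.33, -0.90 and -0.26, and 131 of 213 probes were lower on all 3 days. On days 1 and 3 the medians of the 8 other compound groups lay between -0.11 and 0.04, except for albiflorin 1 µg/ml at 0.63 on day 1. On day 2 they divided as the array medians had, with paeoniflorin 10 µg/ml at -0.54, paeoniflorin 100 µg/ml at -0.58 and paeonol 1 µg/ml at -0.64, and the other 5 between -0.10 and 0.01. Without day 2 the median with paeonol 100 µg/ml was -0.27 and 178 of 213 differences were below 0, against 44.6% of all tested probes. Within the high control-spot set, where LPS alone has only replicate 1, it was -0.21, against -0.06 to 0.63 for the other groups. No paeonol array is in the low set.

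The difference was larger for probes with a rise of 4 or more, while the classes below 4 had similar medians. To keep the measure of the rise apart from the arrays compared, it was taken from the 18 albiflorin and paeoniflorin arrays against vehicle. The 24 probes with a rise of 5 or more had a median difference of -0.98 with paeonol 100 µg/ml, and all 24 were below 0. The 21 probes with a rise of 4 to 5 had a median of -0.70, and all 21 were below 0. The medians were -0.42 for 45 probes with a rise of 3 to 4, -0.37 for 50 probes at 2.5 to 3 and -0.41 for 73 probes under 2.5. As a share of the rise the class medians ran from -18.8% in the class under 2.5 to -13.2% in the class of 3 to 4. Across the 213 probes the Pearson correlation between rise and difference was -0.43 and Spearman's rho -0.30. These are values across probes that share all their arrays, and they fell to -0.26 and -0.18 over the 189 probes with a rise under 5. With paeonol 1 µg/ml the classes of 4 to 5 and of 5 or more had medians of -0.31 and -0.28, and the lower classes -0.13 to -0.21. With paeoniflorin 100 µg/ml, whose arrays enter this rise, they were -0.24 and -0.27 against -0.11 to -0.16. Albiflorin 100 µg/ml gave -0.05 and -0.07 against -0.03 to -0.06.

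Eligible probes outside the 213 were also lower where LPS had raised them, by less. The median difference with paeonol 100 µg/ml was -0.31 for 359 probes with a rise of 1 to 2, 0.02 for 8474 probes that changed by less than 1, 0.28 for 319 probes that fell by 1 to 2 and 0.11 for 20 that fell by 2 or more. These classes rest on the same vehicle and LPS-treated arrays. Their order was not particular to paeonol 100 µg/ml. Paeoniflorin 10 µg/ml gave -0.16 for rises of 1 to 2, 0.03 for changes within 1 and 0.22 for falls of 1 to 2. In the same classes paeoniflorin 100 µg/ml gave -0.10, 0.03 and 0.08 and paeonol 1 µg/ml -0.13, 0.04 and 0.08. Paeonol 10 µg/ml had the order at -0.04, 0.01 and 0.02, and albiflorin 10 and 100 µg/ml and paeoniflorin 1 µg/ml did not. Albiflorin 1 µg/ml ran the other way, at 0.08, -0.02 and -0.08. With paeonol 100 µg/ml the named probes left out for their RefSeq identifier gave -0.47 for Ifi202b, -0.83 for Csprs, -0.63 for C130026I21Rik and -0.01 for Bcl2a1b. None of them was called in limma's test.

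**Figure D4:**
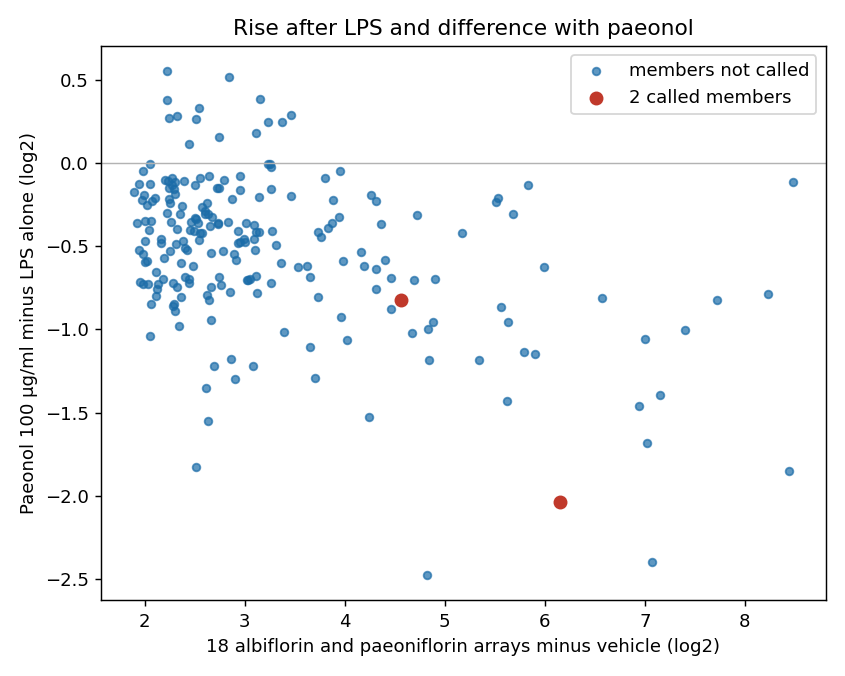
Each point is one of the 213 probes, with its rise over vehicle on the 18 albiflorin and paeoniflorin arrays (horizontal, log2) and its difference between paeonol 100 µg/ml and LPS alone (vertical, log2), and the 2 called probes in red. All 45 probes with a rise of 4 or more lie below 0.

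The 6 pairs of probes with a common identifier can be set beside each other with paeonol 100 µg/ml. Probes 720621 and 579867 (mCG119533.1) gave -0.70 and -0.72, and probes 654536 and 454451 (mCG121091.1) -0.54 and -0.57. Probes 835755 and 914782 (mCG8601.2) gave -0.60 and -0.49, and probes 928610 and 918900 (mCG18845.3) -0.36 and -0.53. Further apart were probes 486727 and 614952 (mCG125814.2), at -0.48 and -0.09, and probes 348521 and 911662 (mCG129202.1), at -0.10 and -0.52. All 12 values were below 0, as were 199 of all 213 probes (93.4%).

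At paeonol 10 µg/ml the median difference was -0.06, or -0.21 under median scaling, where the median of all tested probes moved to -0.12, and -0.20 to 0.07 with single arrays left out. No probe was called, of the 213 or on the whole array (0%), with 1 of the 213 and 3% of all probes at an unadjusted p under 0.05. The smallest p was that of probe 395975 (mCG120512.1), which read 13.61, 15.03 and 14.63 with LPS alone and 13.02, 13.23 and 13.19 with paeonol 10 µg/ml. The groups did not overlap, and the limma adjusted p was 1 (-1.28 ± 0.493 SE). Over all LPS-treated arrays this probe read 14.41 to 15.03 in the low control-spot set and 12.74 to 14.06 in the high set. All paeonol arrays are in the high set, as is only replicate 1 of LPS alone. Under other processing and fits the difference ran from -1.41 to -0.42, and the part of the array set was not tested.

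At paeonol 1 µg/ml the median was -0.22, again with no call on the array (0%). Of the 213, 9 were lower and 2 higher at an unadjusted p under 0.05, together 5.16%, against 6.65% of all probes. Probe 469659 (mCG22998.2) had the smallest p. It read 16.31, 18.80 and 18.76 against 18.76, 19.47 and 19.26 with LPS alone (-1.21 ± 0.425 SE, limma adjusted p = 0.745), so replicate 1 was far below the other arrays and the groups overlapped. Without scan day 2 the median at 1 µg/ml was 0.02.

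Over the 3 doses, paeonol had a median slope of -0.15 log2 units per 10-fold dose among the 213, against 0.01 over all probes. The slope was below 0 for 175 of the 213, against 48.7% of all probes, and similar shares with the glycosides are given below. No member was called, while 4 of 19438 probes were (0.0206%). At an unadjusted p under 0.05, 28 of the 213 (13.1%) had a slope and all 28 ran downward, against 6.8% of all probes in either direction and 3.68% downward. Probe 524988 (mCG123917.1) was the nearest to a call. Its paeonol means were 15.98 at 1 µg/ml, 15.94 at 10 µg/ml and 14.15 ± 1.042 (SD, n = 3) at 100 µg/ml, with single arrays at 13.43, 13.68 and 15.35. Its slope was -0.92 ± 0.211 (SE, limma adjusted p = 0.196), and it was called, as the only member, with a replicate block and also without paeonol 100 µg/ml replicate 3. The step lay between 10 and 100 µg/ml.

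No probe was called with albiflorin. The median differences from LPS alone were 0.19 at 1 µg/ml, -0.05 at 10 µg/ml and -0.05 at 100 µg/ml, with no call on the array (0% at each dose). Median scaling of the arrays gave -0.28 and -0.22 at the higher doses, where the median of all tested probes moved to -0.20 and -0.13. With single arrays left out these 2 medians ranged from -0.22 to 0.09 and from -0.22 to 0.10. At an unadjusted p under 0.05 the counts among the 213 were 1, 0 and 0, against 1.23%, 2.07% and 1.86% of all probes. The 95% interval lay within a 2-fold change in either direction for 136, 164 and 159 of the 213. The raised median at 1 µg/ml came with replicate 1 of that group, whose same-day difference was 0.63 against 0.00 and -0.11 on the other days. Without that array the median was 0.03.

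The probes with the smallest p under albiflorin differed by dose. Probe 927321 (mCG17886.1) differed by -0.54 ± 0.251 (SE) at 1 µg/ml, probe 395975 by -0.72 ± 0.493 at 10 µg/ml and probe 929671 (mCG20345.1) by -0.51 ± 0.264 at 100 µg/ml, all with a limma adjusted p of 1 to 2 decimals. Probe 395975 read lower in the high control-spot set, as described above. Albiflorin 10 µg/ml has 2 arrays in that set and LPS alone has 1. Under other processing and fits its difference ran from -0.93 to -0.26. The slope over the doses was below 0 for 178 of 213 probes, against 52.6% of all. Its 1 µg/ml end includes the raised replicate 1 array described above. The median slope was -0.12 per 10-fold dose, with 3 of 213 at an unadjusted p under 0.05, against 3.29% of all probes, and no call (0% of the array). Probe 823093 (mCG8770.2) came first, with means of 13.98, 13.68 and 13.45 from the lowest to the highest dose and a slope of -0.27 ± 0.101 (SE, limma adjusted p = 1).

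Paeoniflorin gave median differences of -0.02 at 1 µg/ml, -0.22 at 10 µg/ml and -0.17 at 100 µg/ml, with no call on the array at any dose (0%). At 1 µg/ml none of the 213 had an unadjusted p under 0.05, against 1.26% of all probes, and 170 of 213 had an interval within a 2-fold change. At 10 µg/ml 16 of the 213 did, all lower. They make up 7.51% of the members, against 7.73% of all probes in either direction and 5.39% lower. Without replicate 1, the array that stood apart, this count was 1 and the median -0.15. At 100 µg/ml it was 2 of 213, against 1.76% of all probes, and without scan day 2 the median was 0.02.

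Probe 918900 (mCG18845.3) had the smallest p at paeoniflorin 10 µg/ml, with 15.21, 15.62 and 15.96 against 16.05, 16.22 and 16.29 with LPS alone (-0.59 ± 0.160 SE, limma adjusted p = 0.629). A second probe of the same identifier, 928610, differed by -0.19 ± 0.127. At 1 µg/ml the smallest p belonged to probe 804608 (mCG19410.2), which was higher by 0.29 ± 0.189 (SE, limma adjusted p = 1). At 100 µg/ml it belonged to probe 651349 (mCG4784.2), with 14.96, 14.97 and 15.54 against 15.18, 17.50 and 16.62. The spread of its LPS arrays made the groups overlap, and the difference was -1.28 ± 0.586 (SE, limma adjusted p = 1). All paeoniflorin 100 µg/ml arrays are in the high control-spot set, where LPS alone has only replicate 1, at 15.18. Under other processing and fits the difference ran from -1.32 to -0.68, and the part of the array set was not tested. The slope over the doses was below 0 for 175 of 213 probes, against 47% of all. Its median was -0.08 per 10-fold dose, with 1 member and 1.42% of all probes at an unadjusted p under 0.05 and no call (0%). That member was probe 330925 (mCG49559.2), whose slope was -0.20 ± 0.0915 (SE).

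**Figure D5:**
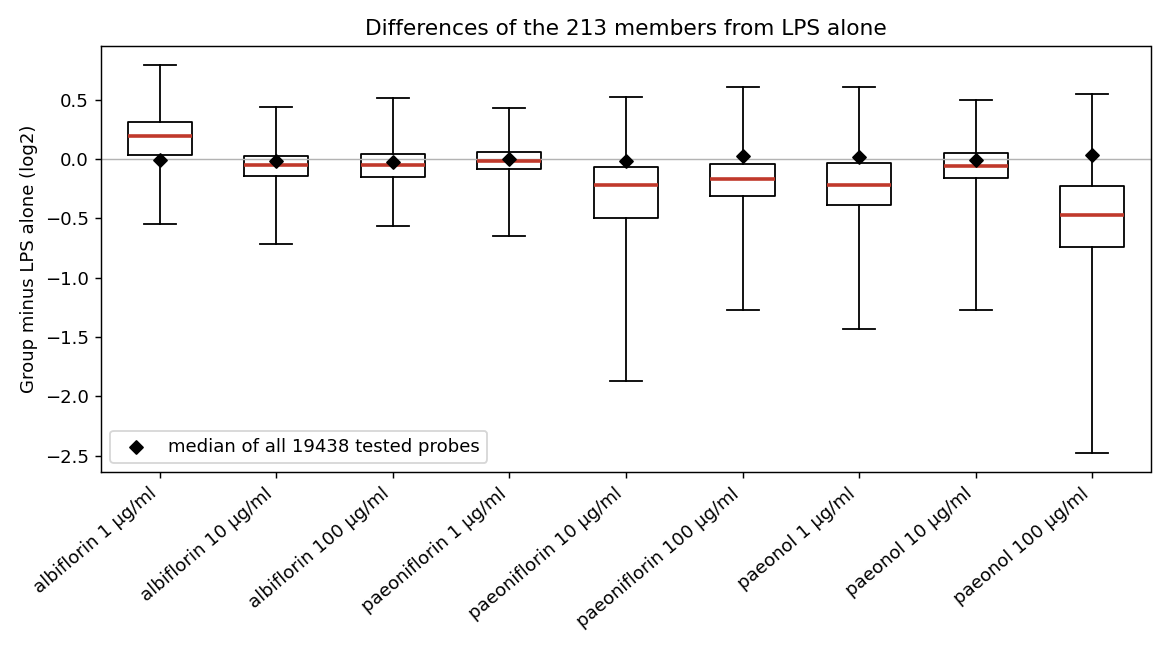
Differences of the 213 probes from LPS alone (log2) in each compound group, with boxes from the lower to the upper quartile, red medians, and whiskers to the lowest and highest probe. Black diamonds mark the median of all 19438 tested probes, which stays within 0.04 of 0, while the median of the 213 runs from 0.19 with albiflorin 1 µg/ml to -0.47 with paeonol 100 µg/ml.

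The 3 pairs of compounds were compared over their matched doses without the LPS-alone arrays, and p-values were adjusted over all tested probes within each pair. For the isomers albiflorin and paeoniflorin, limma's moderated F test called no probe on the array (0%). Among the 213, 1 had an unadjusted p under 0.05, against 2.53% of all probes. This was probe 918900 (limma adjusted p = 0.972), and its means of 16.06 and 15.60 at 10 µg/ml gave the largest gap. The median difference, albiflorin minus paeoniflorin, was 0.18 at 1 µg/ml, 0.17 at 10 µg/ml and 0.12 at 100 µg/ml over the 213, and -0.02, -0.01 and -0.04 over all probes. These gaps rest on single arrays. At 1 µg/ml the array medians were 3.18, 3.16 and 2.81 with albiflorin and 2.61, 3.15 and 2.87 with paeoniflorin, apart on replicate 1. On replicate 2 they were 3.17 and 2.67 at 10 µg/ml and 3.11 and 2.64 at 100 µg/ml, the split described above, and on the other replicates they lay close together. At 100 µg/ml single members differed by -0.63 to 1.13.

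Paeonol differs from both glycosides in lacking the sugar and the terpene skeleton. Against albiflorin the F test called none of the 213 and 3 probes on the array (0.0154%), and with a replicate block it called 2 of the 213. At an unadjusted p under 0.05 there were 49 of 213 (23%), against 9.14% of all probes. The median of albiflorin minus paeonol was 0.42 at 1 µg/ml, 0.01 at 10 µg/ml and 0.42 at 100 µg/ml. At 100 µg/ml every paeonol array lay below every albiflorin array for 53 members, against 5.01% of all probes, and above for 2, against 9.41%. At 1 µg/ml this count was 54, against 7.9% of all probes, with the low replicate 2 of paeonol and the high replicate 1 of albiflorin described above. Of the albiflorin arrays 2, 1 and 1 are in the low control-spot set at rising dose, and no paeonol array is. On replicate 2 the array medians at 100 µg/ml were 3.11 with albiflorin and 2.37 with paeonol, the split described above. The part of the array set and of that split in these counts was not tested. Probe 651349 came first (limma adjusted p = 0.227). It read 15.23, 16.88 and 16.39 with albiflorin 100 µg/ml and 13.68, 13.56 and 14.64 with paeonol 100 µg/ml, without overlap. A second probe of its identifier, 913648, was detected on 30 arrays only and had a rise of 4.26.

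Against paeoniflorin the F test called none of the 213 and 1 probe on the array (0.00514%). At an unadjusted p under 0.05 there were 14 of 213 (6.57%), against 4.67% of all probes, led by probe 915023 (limma adjusted p = 0.908). The median of paeoniflorin minus paeonol was 0.20 at 1 µg/ml, -0.18 at 10 µg/ml and 0.34 at 100 µg/ml. At 100 µg/ml every paeonol array was below every paeoniflorin array for 59 members, against 6.66% of all probes, and above for 5, against 7.42%. The array medians above vehicle at this dose were 2.65, 2.64 and 2.84 with paeoniflorin and 2.41, 2.37 and 2.69 with paeonol. All 6 arrays belong to the high control-spot set.

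A single F test over all 10 LPS-treated groups called none of the 213 and 5 probes on the array (0.0257%). At an unadjusted p under 0.05 there were 23 of 213 (10.8%), against 4.65% of all probes. The leading members were probe 830078, described above, and probe 309451 (mCG20688.2), both with a limma adjusted p of 0.637. Probe 309451 read 18.34, 18.65 and 18.49 with LPS alone and 17.65, 17.69 and 18.07 with paeonol 100 µg/ml. Its other 8 group means lay between 18.30 and 18.67, so it too was lowest with the highest paeonol dose.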

How the data were processed

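RNA of treated RAW264.7 cells was measured on 33 one-colour oligonucleotide arrays, read by chemiluminescence per the labels' protocols. The deposited scanner tables give each spot an intensity that was not normalized between arrays, a score of signal over noise, and a flag for spot quality, per the file headers. The authors also deposited a log2 table whose normalization is not given in the sources used here. Its column for vehicle replicate 1 equals the log2 scanner intensity to within 2.24e-06, its column medians run from 9.89 to 10.11, and each column ranks probes as its array does (rank correlations of at least 0.993). It served the rule that chose the 213 probes and one alternative.

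For all tests the 303 control spots were left out, spots with a flag above 5000 were set missing, and intensities were quantile normalized, floored at their 5th percentile (165.7) and taken to log2. Probes with a score of at least 3 and a flag of at most 5000 on 3 or more arrays were tested. These were 19438 probes, 1785 of them with a missing value on some array. limma 3.58.1 in R 4.3.3 fitted 11 group means to all 33 arrays (lmFit, eBayes, 2-sided tests), with Benjamini-Hochberg adjustment of the p-values over all tested probes. Dose trends are slopes on log10 dose. The fit was tested on simulated data. The number of arrays limits the precision, and the median standard error of a group difference was 0.295 among the 213.

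The replicate number marks the scan day for 3 of 3 numbers, per the file headers, so it was also fitted as a block. Same-numbered deviations of a compound group and LPS alone correlated between -0.21 and 0.52, and every pair was over 0.1 in 4 of 9 comparisons. Probes named are the 2 largest and 2 smallest rises, the 2 just outside the threshold, called probes (at most 2 each way) and otherwise the smallest p of each comparison, or the first 2 for the F test over all groups. Other probes with their identifiers are given beside them. The 213 probes, the gene lists and the tests were chosen with earlier results of these data known.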

Additional observations from a re-analysis of the deposited data

How the results depend on the processing

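Of 724 recomputed values, 664 kept their direction and side of the threshold or moved by less than the spread, and none of the named probes' differences changed sign. The numbers of probes called lower with paeonol 100 µg/ml moved most. The count of 2 became 0 under median scaling, without the detection filter, with only the compared groups fitted and with the array set as a block, 10 with the replicate block and 9 with the replicate block and array set together, and 0 to 7 with arrays left out. The replicate block, with or without the array set, raised the paeonol trend from 0 calls to 1 and albiflorin against paeonol from 0 to 2 (block alone), and leaving out arrays gave 0 to 1 for that trend. Every other count of called members stayed at 0. The adjusted p of probe 915023 ran from 0.0105 to 0.496 and that of probe 830078 from 0.011 to 0.562. The median with paeonol 100 µg/ml stayed between -0.65 and -0.27. Median scaling gave -0.28 and -0.22 for albiflorin 10 and 100 µg/ml, -0.0555 for paeoniflorin 1 µg/ml and -0.21 for paeonol 10 µg/ml, and the array set as a block gave 0.0345 for paeoniflorin 1 µg/ml. With arrays left out these medians ranged from -0.22 to 0.0908, from -0.22 to 0.10, from -0.17 to 0.14 and from -0.20 to 0.0743. The cause of these moves was not tested. A batch from the file headers was not run, since they give none beyond the scan day. The array set and the removal of replicate 2 were added after the data were seen.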
